A study of Mus musculus with 4 samples.

Results

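The cyclins that drive the cell cycle were examined in mouse embryonic stem (ES) cells that lack Snai1, the gene for the zinc finger repressor Snail, and in control ES cells. The members were all probe sets that the platform annotation assigns to a single gene, that gene being one of 9 listed cyclins (Ccna2, Ccnb1, Ccnb2, Ccnd1, Ccnd2, Ccnd3, Ccne1, Ccne2 and Ccnf). The rule found 21 probe sets of the 45101 on the array, and these covered 8 of the 9 genes. The probe table used here names no probe set for Ccnb1 (cyclin B1), so it has no value. Ccnd2 had 7 probe sets, Ccnd1 and Ccnd3 had 3 each, Ccna2, Ccne1 and Ccnf had 2 each, and Ccnb2 and Ccne2 had 1 each.

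RNA from 4 samples was measured on single-colour Affymetrix arrays. The knockout group (titles KO.ES) and the control group (titles F/F.ES, genotype field control) had 2 arrays each, called biological replicates in the labels. Cells of both groups grew on feeder cells in medium with leukaemia inhibitory factor, which keeps ES cells undifferentiated, and received no further treatment. The labels do not explain F/F, the source name of the control also holds the words knock out, and strain, clone and passage are not given, so each direction rests on titles and genotypes. What separated the replicates is not stated either, so p-values measure only the spread between these arrays.

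Cyclins are the regulatory subunits of the cyclin-dependent kinases (CDKs), and their rise and destruction orders the cell cycle. D-type cyclins bind Cdk4 and Cdk6 and relay growth signals by phosphorylating the retinoblastoma protein, E-type cyclins bind Cdk2 at the entry into S phase, cyclin A2 acts through S phase and G2, and B-type cyclins bind Cdk1 and start mitosis. Cyclin F is the atypical member, since it binds no CDK and serves as the substrate receptor of a ubiquitin ligase. Mouse ES cells are known for a short G1 phase, high Cdk2 activity and cyclin E levels that vary little through the cycle.

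The promoters of the mitotic cyclins carry sequence elements that time their transcription. Matches to their letters are shown for Ccnb2 and Ccnf, the cyclins of G2 and mitosis with both a window and a measured level. RefSeq windows (GRCm38.p6) were at hand for 5 of the 9 cyclins, and each was searched over the 250 bases before the start site. Capitals mark CCAAT boxes (CCAAT, bound by the factor NF-Y) and matches to TTTGAA, on either strand. TTTGAA is the letters of the cell cycle genes homology region, which the MuvB complex binds. The Ccnb2 window lies at chr9:70421555-70421804 and that of Ccnf at chr17:24251410-24251659, both on the minus strand.
Ccnb2: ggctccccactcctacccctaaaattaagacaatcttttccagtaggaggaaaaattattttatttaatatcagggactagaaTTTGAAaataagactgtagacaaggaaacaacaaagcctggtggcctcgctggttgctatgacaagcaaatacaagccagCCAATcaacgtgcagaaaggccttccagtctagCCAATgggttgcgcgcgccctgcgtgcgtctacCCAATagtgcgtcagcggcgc
Ccnf: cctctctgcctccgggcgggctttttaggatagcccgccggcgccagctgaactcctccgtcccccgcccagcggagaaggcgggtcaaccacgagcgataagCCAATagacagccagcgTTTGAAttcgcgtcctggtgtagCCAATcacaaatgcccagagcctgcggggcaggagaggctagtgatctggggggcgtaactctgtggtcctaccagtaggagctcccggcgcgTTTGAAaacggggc
The Ccnb2 window held 3 CCAAT boxes and 1 TTTGAA match, and the Ccnf window held 2 of each. Over 32851 windows of this length, 33.8% held CCAAT and 16% held TTTGAA on either strand. The E-box to which Snail is known to bind (CAGGTG, searched on both strands, and overlapping neither element in its letters) was in 17.2% of all windows and had 0 matches in the windows of Ccnb1, Ccnb2, Ccne1 and Ccnf and in both windows of Ccnd3. A match is a match of letters and was not tested for binding, and its absence speaks only of this stretch.

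On the brightest probe set of each gene, that is the highest by mean log2 value, both knockout arrays lay below both control arrays for cyclins E1, E2, A2, B2 and D2 and above them for cyclins D3 and F, each by less than 2-fold, and none passed the test. At least 1 other probe set of Ccnd2, Ccnd3 and Ccnf each had the opposite sign. At a limma adjusted p of 0.05, 0 of 8 cyclins differed, against 4.14% of all 18193 genes (1.98% higher and 2.17% lower) and 7.29% of the 9484 genes whose mean was 6 or more, a level that all 8 cyclins exceeded. At an unadjusted p under 0.05 there were 6 of 8, 2 higher and 4 lower, against 23.9% of all genes (9.06% higher and 14.9% lower) and 38.9% of the brighter genes. The groups did not overlap for 7 of 8 cyclins, against 52.3% of all genes and 63.6% of the brighter genes. The median log2 difference, knockout minus control, was -0.29 over the 8 cyclins and -0.09 over the brighter genes. Over single probe sets, tested among 45037, 0 of 21 passed, where 0.546% of all probe sets did, and 7 of 21 had an unadjusted p under 0.05, against 19.5% of all probe sets.

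**Figure D1:**
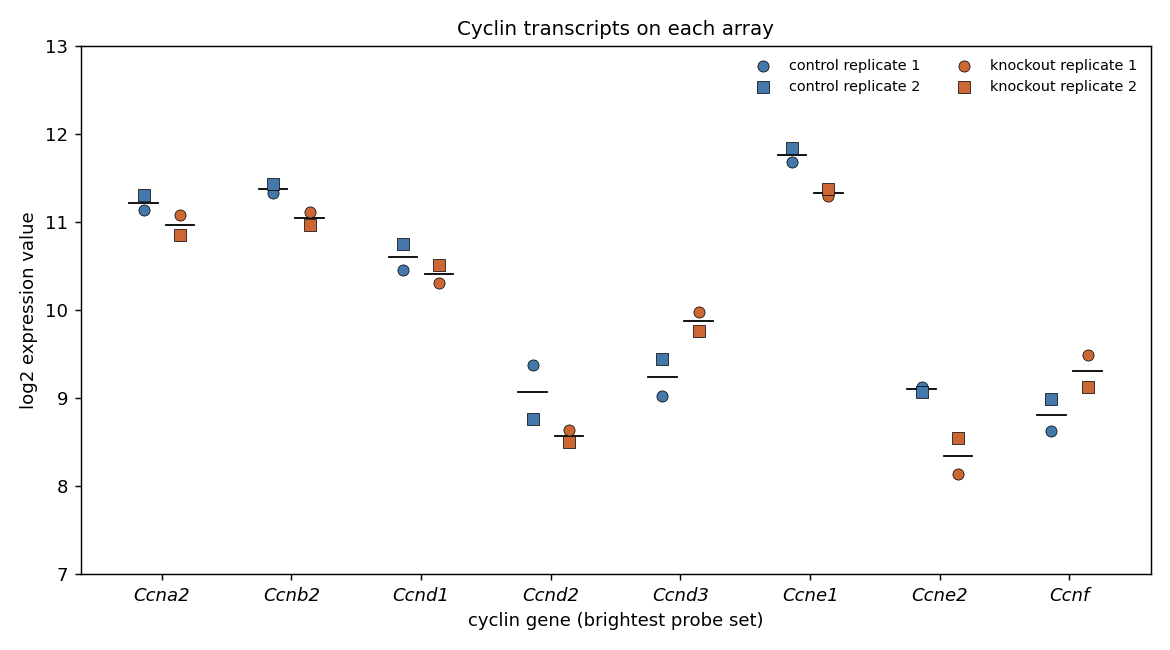
Log2 expression value (vertical axis) of the brightest probe set of each of the 8 cyclin genes (horizontal axis) on the 4 arrays, with control in blue, knockout in orange, circles for replicate 1, squares for replicate 2 and a bar at each group mean. Both knockout arrays lie below both control arrays for Ccna2, Ccnb2, Ccnd2, Ccne1 and Ccne2 and above them for Ccnd3 and Ccnf; heights are to be compared within a gene only, since probe sets differ in their response.

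The arrays differed in ways that accompany these values. The gap between the 3' and 5' control probe sets of Actb (beta-actin), a sign of RNA integrity, was 0.80 to 1.11 in the knockout and 2.97 to 3.02 in the control (log2), that of Gapdh was 0.27 to 0.40 against 1.24 to 1.48, and that of Tfrc (transferrin receptor) 2.67 to 2.85 against 3.66 to 3.88. For Pcx (pyruvate carboxylase) it was nearly the same, at 0.55 to 0.60 against 0.63 to 0.65. The mean log2 level of 23 markers of fibroblasts, the usual feeder cells, was 7.64 in knockout replicate 1, 6.92 in knockout replicate 2, 7.88 in control replicate 1 and 7.23 in control replicate 2. Of these markers 19 were higher in replicate 1 in both groups, 1 lay at background on all arrays, and none passed the test. How many of all genes were higher in replicate 1 in both groups was not counted. Markers of ES cells were bright on all arrays, with Pou5f1 at 12.12 to 13.07 and Sox2 at 12.00 to 12.10, and 5 of 12 rose in the knockout. Among 11 markers of differentiating cells 0 rose and 1 fell. Of all genes 1.98% passed as higher and 2.17% as lower, and 7.29% of the brighter genes passed in either direction. The part of RNA integrity and of feeder cells in the cyclin values was not tested, and in such bulk RNA fewer cells of a type and less RNA per cell cannot be told apart. Snai1 itself lay at 3.79 and 4.04 in the knockout against 4.41 and 4.69 in the control, all within the range of 27 control probe sets for bacterial transcripts (2.91 to 4.77), so its level does not check the labels.

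For the D-type cyclins, the first in the cycle, the direction depended on the probe set in all 3 genes, and none passed the test. The bright probe set of Ccnd3 (1415907_at), which encodes cyclin D3, read 9.98 and 9.76 in the knockout against 9.03 and 9.45 in the control. Both knockout arrays lay above both control arrays, and the control pair lay farther apart than the knockout pair. The log2 difference was 0.64 ± 0.18 (SE), a 1.56-fold higher mean that did not pass (limma adjusted p = 0.0832). The 2 dimmer Ccnd3 probe sets did not follow in 1 direction. Probe set 1444323_at, at a mean of 5.58, differed by -0.33 ± 0.14 (SE), and 1438805_at, at background on all 4 arrays, by 0.30 ± 0.12 (SE).

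Ccnd1, the gene of cyclin D1 and a well-known target of mitogen signalling, showed no separation of the groups on any of its probe sets. The brightest, 1448698_at, read 10.30 and 10.51 in the knockout against 10.45 and 10.75 in the control, for a log2 difference of -0.19 ± 0.16 (SE) with a 95% interval of -0.57 to 0.19. Probe set 1417420_at, nearly as bright, read 10.41 and 10.59 in the knockout against 10.46 and 10.14 in the control, a difference of 0.20 ± 0.16 (SE). Probe set 1417419_at read 9.02 and 9.65 in the knockout against 9.26 and 8.65 in the control. Its arrays lay 0.62 and 0.60 apart within the groups, farther than the difference of the group means, 0.38 ± 0.28 (SE). The sign for Ccnd1 therefore depended on the probe set, and the groups overlapped on all 3.

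Ccnd2, which encodes cyclin D2, had the widest disagreement between probe sets of any cyclin. Its brightest probe set, 1434745_at, read 8.64 and 8.50 in the knockout against 9.37 and 8.76 in the control, for a log2 difference of -0.50 ± 0.21 (SE, limma adjusted p = 0.205). Probe set 1430127_a_at read 7.40 and 7.39 in the knockout against 6.35 and 5.85 in the control. There the knockout was 2.45-fold higher, with a log2 difference of 1.29 ± 0.19 (SE), the largest in size among the 21 probe sets and just short of the threshold (limma adjusted p = 0.0542 over probe sets). Probe set 1416122_at was also higher in the knockout, at 8.16 and 8.04 against 7.94 and 6.87, by 0.69 ± 0.33 (SE). On 1455956_x_at (7.77 and 7.87 against 8.14 and 7.28) and 1448229_s_at (7.39 and 7.61 against 7.71 and 6.98) the groups overlapped, with differences of 0.11 and 0.16.

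Of the 5 Ccnd2 probe sets at a mean of 6 or more, control replicate 1 exceeded control replicate 2 on all 5, by 0.50 to 1.08. On 4 of the 5 this distance within the control was larger than the difference between the groups, 1430127_a_at being the exception, and control replicate 2 was the lowest of the 4 arrays on 4 of the 5. Without control replicate 2, the differences of 1455956_x_at and 1448229_s_at turned to -0.32 and -0.21. The other 2 Ccnd2 probe sets lay at or near background, 1416123_at with 3 of its 4 arrays within the background range and 1416124_at with all 4. The annotation pairs 1434745_at with the expressed sequence BQ175880, 1430127_a_at with the cDNA AK007904, and 4 of the others with the RefSeq transcript NM_009829. Where each lies along the transcript was not analysed here.

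**Figure D2:**
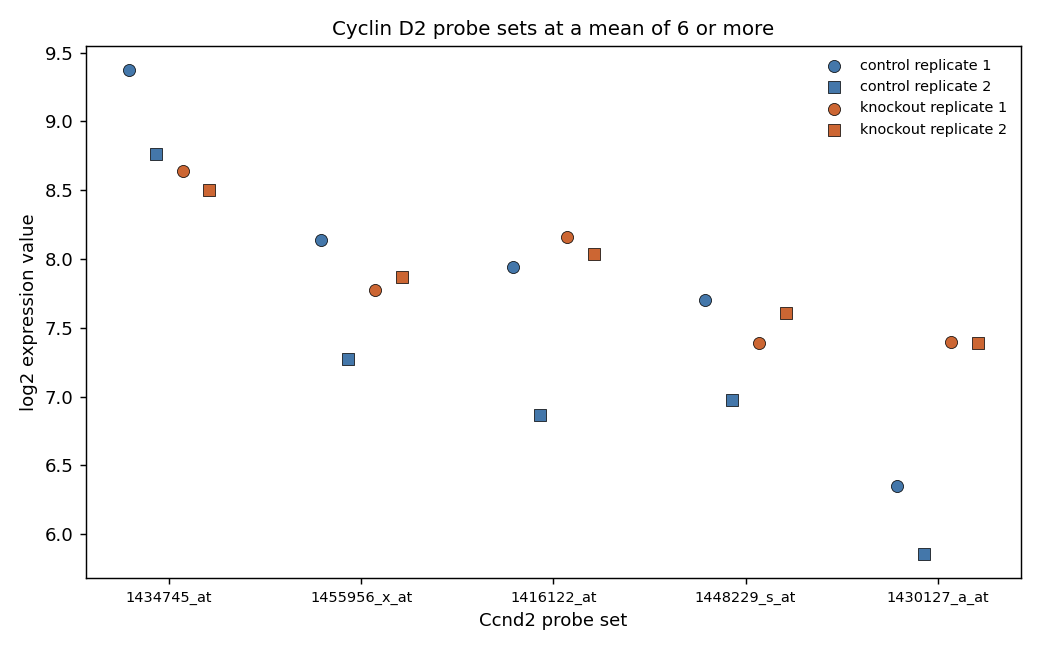
Log2 expression value (vertical axis) of the 5 Ccnd2 probe sets at a mean of 6 or more (horizontal axis) on each array, with control in blue, knockout in orange, circles for replicate 1 and squares for replicate 2. The knockout lies below the control on 1434745_at and above it on 1416122_at and 1430127_a_at, and control replicate 1 exceeds control replicate 2 on all 5.

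The E-type cyclins, which activate Cdk2 at the start of S phase, were both lower in the knockout. Ccne2, the gene of cyclin E2, read 8.13 and 8.55 in the knockout against 9.13 and 9.07 in the control on its single probe set, 1422535_at. Both knockout arrays lay below the control pair, by 0.52 or more, and the control arrays were 0.06 apart. The log2 difference was -0.76 ± 0.17 (SE), a 1.69-fold lower mean and the largest in size among the 8 genes (95% interval -1.16 to -0.36, limma adjusted p = 0.0542). With each array centred on its median it passed at adjusted p = 0.0496, and with genes at a mean under 6 left out it passed at 0.0403. It did not pass with an intensity trend (0.0671), a further quantile normalization (0.0696) or probe sets averaged (0.0656).

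Ccne1, the gene of cyclin E1, read 11.30 and 11.37 in the knockout against 11.69 and 11.84 in the control on its brightest probe set, 1441910_x_at, and the groups stood apart. The difference was -0.43 ± 0.14 (SE, limma adjusted p = 0.109). The other probe set, 1416492_at, ran the same way, at 10.74 and 10.73 against 10.83 and 11.16, with a difference of -0.26 ± 0.15 (SE). On it the lower control array lay 0.089 above the knockout pair.

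Ccne2 also had the largest standard deviation over the 4 arrays among the 8 cyclins (0.47). Among 9483 other genes whose mean was at least 6, the 3 nearest in profile, by Euclidean distance between log2 values centred on each gene's mean over the 4 arrays, were Pcmtd1 (0.06), Rnf103 (0.09) and the zinc finger gene Zfp953 (0.10). They were lower in the knockout by log2 differences of -0.71, -0.70 and -0.75, of which only that of Zfp953 passed (limma adjusted p = 0.0453). With 4 arrays such nearness describes these samples alone.

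Cyclin A2 and cyclin B2, which act from S phase into mitosis, lay slightly lower in the knockout. Ccna2 read 11.08 and 10.86 in the knockout against 11.13 and 11.31 in the control on 1417911_at, so that the nearest arrays of the 2 groups were 0.054 apart. The difference was -0.25 ± 0.15 (SE) there and -0.28 ± 0.15 (SE) on 1417910_at, which read 10.51 and 10.20 against 10.64 and 10.63. Both probe sets put the knockout lower by about the same amount, and each difference was smaller than 2 standard errors. Ccnb2 read 11.12 and 10.97 in the knockout against 11.33 and 11.43 in the control on its single probe set, 1450920_at, a difference of -0.34 ± 0.14 (SE, limma adjusted p = 0.193). Its nearest arrays of different groups were 0.21 apart, farther than the arrays of either pair (0.15 and 0.10).

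Ccnf, which encodes the ubiquitin ligase receptor cyclin F, was higher in the knockout on its bright probe set. That probe set, 1422513_at, read 9.49 and 9.12 in the knockout against 8.62 and 8.99 in the control, a difference of 0.50 ± 0.19 (SE, limma adjusted p = 0.157). The arrays within each group lay 0.36 to 0.37 apart, farther than the nearest arrays of different groups (0.14). The dimmer 1443807_x_at read 7.50 and 7.49 in the knockout against 7.71 and 7.66 in the control, the opposite direction, at -0.19 ± 0.12 (SE). In all, 3 of the 6 genes with over 1 probe set (Ccnd1, Ccnd2 and Ccnf) had bright probe sets of opposite sign.

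**Figure D3:**
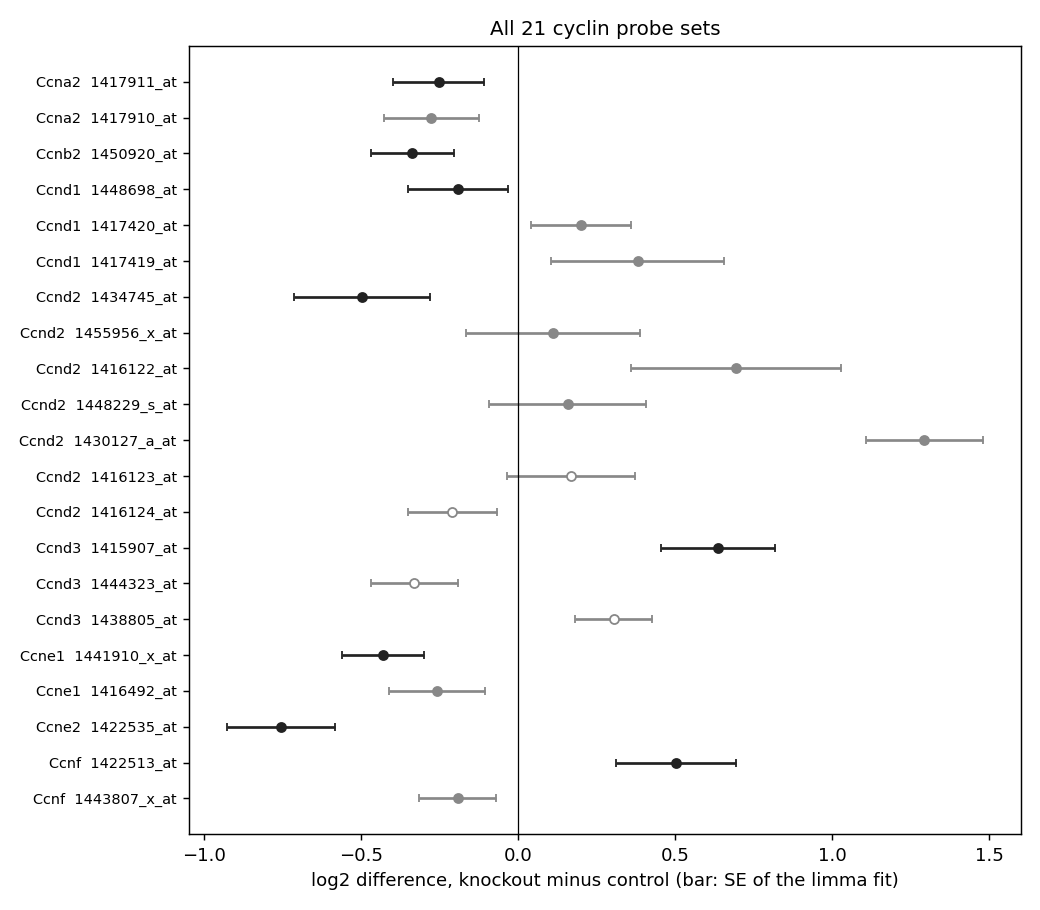
Log2 difference, knockout minus control (horizontal axis), of the 21 cyclin probe sets (vertical axis, by gene and falling brightness), with bars for the limma standard error. Black points are the brightest probe set of a gene, grey points the others, and open points those at a mean under 6; the probe sets of Ccna2 and Ccne1 lie on the same side of 0, and those of Ccnd1, Ccnd2, Ccnd3 and Ccnf on both sides.

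No gene of the kinases that cyclins activate passed. This held for 8 kinases and kinase subunits, with a median difference of -0.05. At an unadjusted p under 0.05 there was 1 (12.5%), beside 23.9% of all genes and 38.9% of the brighter genes. The largest difference was that of Cdk4, the kinase of D-type cyclins, at 11.70 and 11.58 in the knockout against 10.96 and 11.31 in the control. It was higher by 0.50 ± 0.16 (SE, limma adjusted p = 0.112), and its other 2 probe sets were higher by 0.68 and 0.56. Of 7 CDK inhibitor genes 0 passed and 1 (14.3%) had an unadjusted p under 0.05, with a median difference of 0.23. The largest was Cdkn1b, which encodes p27 and holds back Cdk2, at 8.77 and 8.75 in the knockout against 8.18 and 8.16 in the control. Its replicates were nearly equal and its difference was 0.59 ± 0.13 (SE), just short of the threshold (limma adjusted p = 0.0516). It passed with a further quantile normalization (0.0454), where 4.79% of all genes passed, and with dim genes left out (0.0451), where 12.9% of those tested did. It did not pass with an intensity trend, with median centring or with probe sets averaged. The other probe set of Cdkn1b, which enters that average, lay at background, at a mean of 3.72.

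Among the 13 genes of the pocket proteins, E2F factors and their partners, the targets and effectors of G1 cyclins, 1 rose and 1 fell, with a median of -0.28. Beside this list and the next, 4.14% of all genes and 7.29% of the brighter genes passed. At an unadjusted p under 0.05 this list held 6 genes (46.2%) and the next 4 (44.4%). The shares beside these were 23.9% of all genes and 38.9% of the brighter genes. Rb1, the retinoblastoma protein gene, fell from control values of 7.20 and 6.95 to 6.31 and 6.43 in the knockout (-0.70 ± 0.15, SE, limma adjusted p = 0.0487). E2f4, a mostly repressive E2F, rose from 6.42 and 6.49 to 7.19 and 7.06 (0.67 ± 0.14, SE, adjusted p = 0.0453). Among the 9 MuvB, B-Myb, FoxM1 and Myc regulators, a list that includes regulators of mitotic cyclin genes, 2 rose and 0 fell, with a median of 0.12. Lin37, a MuvB subunit, rose by 1.38 ± 0.18 (SE, adjusted p = 0.0257) and Mybl2, the B-Myb gene, by 0.72 ± 0.15 (SE, adjusted p = 0.0495). A second bright probe set of Mybl2 differed by 0.14. The other probe set of Rb1, which enters its average below, lay at background, at a mean of 3.96. With any 1 array left out only 4 to 50 of all 18193 genes passed, where 754 did with all 4 arrays, so a lost call there says little of a gene. In those fits the difference of Rb1 ran from -0.82 to -0.58, that of E2f4 from 0.61 to 0.74, that of Mybl2 from 0.57 to 0.87 and that of Lin37 from 1.15 to 1.61, and the only call was that of Lin37 without control replicate 1. With an intensity trend in the fit the adjusted p was 0.0624 for Rb1, 0.0616 for E2f4 and 0.0631 for Mybl2, and with the probe sets of a gene averaged it was 0.105 for Rb1 and 0.192 for Mybl2; Rb1 (0.0507, further quantile normalization) and Mybl2 (0.0552, median centring) were also lost once more each.

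Of 21 genes in the list of cyclin degradation and its control 3 were higher and 1 lower, with a median difference of -0.14. Of all genes 4.14% passed, and of the brighter genes 7.29%. At an unadjusted p under 0.05 there were 15 of 21 (71.4%), 6 higher and 9 lower. The shares beside this were 23.9% of all genes and 38.9% of the brighter genes. Anapc11, the RING subunit of the anaphase-promoting complex that ends the life of cyclins A and B, rose from 7.69 and 7.91 to 9.18 and 8.93 (1.25 ± 0.16, SE, limma adjusted p = 0.0232). Its other bright probe set was higher by 0.58 ± 0.13 (SE). Ube2s and Ube2c, ubiquitin-conjugating enzymes of that complex, rose by 0.98 ± 0.13 and 0.94 ± 0.14 (SE), with adjusted p of 0.0283 and 0.0286. The single lower gene, Fbxw7, was named after its values were seen. It encodes the receptor of the ligase that degrades cyclin E. It fell from 9.06 and 9.29 to 8.44 and 8.22 (-0.85 ± 0.15, SE, adjusted p = 0.0405). Its second bright probe set was at 8.53 and 8.43 in the knockout against 8.26 and 7.52 in the control. That probe set put the knockout higher by 0.60 ± 0.24 (SE). With any 1 array left out none of these 4 passed, and their differences ran from 1.13 to 1.38 for Anapc11, 0.91 to 1.04 for Ube2s, 0.87 to 1.02 for Ube2c and -0.96 to -0.74 for Fbxw7. With probe sets averaged the adjusted p was 0.0601 for Anapc11, 0.0719 for Ube2s and 0.681 for Fbxw7. The averages of Anapc11 and Ube2s include probe sets at or near background, at means of 4.71 and 4.15. The second probe set of Fbxw7 was at a mean of 8.19. The 3' to 5' gaps of Actb, Gapdh and Tfrc given above were larger in the control, and that of Pcx was nearly the same. Any part of RNA integrity in the values of these genes was not tested.

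No gene of the lists that report on cell cycle phase passed. Of 19 S phase genes 0 passed, with a median of -0.11, and the largest difference was that of Tk1, thymidine kinase, at 0.66 ± 0.23 (SE, limma adjusted p = 0.133). Of 20 G2 and mitosis genes 0 passed, with a median of -0.31, and 14 of the 20 differences were negative, against 9720 of all 18193 genes and 5529 of the 9484 brighter ones. The largest was Cenpe, a kinetochore motor, at 9.25 and 8.91 in the knockout against 9.87 and 9.75 in the control (-0.73 ± 0.16, SE, adjusted p = 0.0509). It passed with median centring (0.0485) and with dim genes left out (0.0391). It did not pass with an intensity trend, a further quantile normalization or probe sets averaged. Its other probe set ran the opposite way, at 7.86 and 8.17 in the knockout against 6.48 and 4.80 in the control. Of 10 kinases and phosphatases that switch Cdk1 on and off 0 passed, with a median of -0.10, and Plk1, polo-like kinase, differed most, at 0.49 ± 0.15 (SE, adjusted p = 0.0984). At an unadjusted p under 0.05, these 3 lists held 6, 8 and 2 genes, that is 31.6%, 40% and 20% of their members, beside 23.9% of all genes and 38.9% of the brighter genes.

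The other cyclins, most of which act in transcription or have no clear place in the cycle, had 0 of 18 higher and 2 lower, with a median of -0.30. Of all genes 1.98% were higher and 2.17% lower, and 7.29% of the brighter genes passed in either direction. At an unadjusted p under 0.05 there were 8 of 18 (44.4%), beside 23.9% of all genes and 38.9% of the brighter genes. Ccnj fell from 7.13 and 7.21 to 6.46 and 6.34 (-0.77 ± 0.13, SE, limma adjusted p = 0.0385), and Cntd1, a cyclin-domain gene of meiotic crossing over, fell by 0.71 on the log2 scale (adjusted p = 0.0426). A second bright probe set of Cntd1 differed by -0.23. With any 1 array left out neither gene passed, and the difference ran from -0.83 to -0.71 for Ccnj and from -0.76 to -0.65 for Cntd1. Cntd1 did not pass with its probe sets averaged (0.308), an average that includes the probe set at background. The medians of these lists and of the 8 cell cycle cyclins stand beside -0.02 over all genes and -0.09 over the brighter genes, and no difference between lists was tested.

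**Figure D4:**
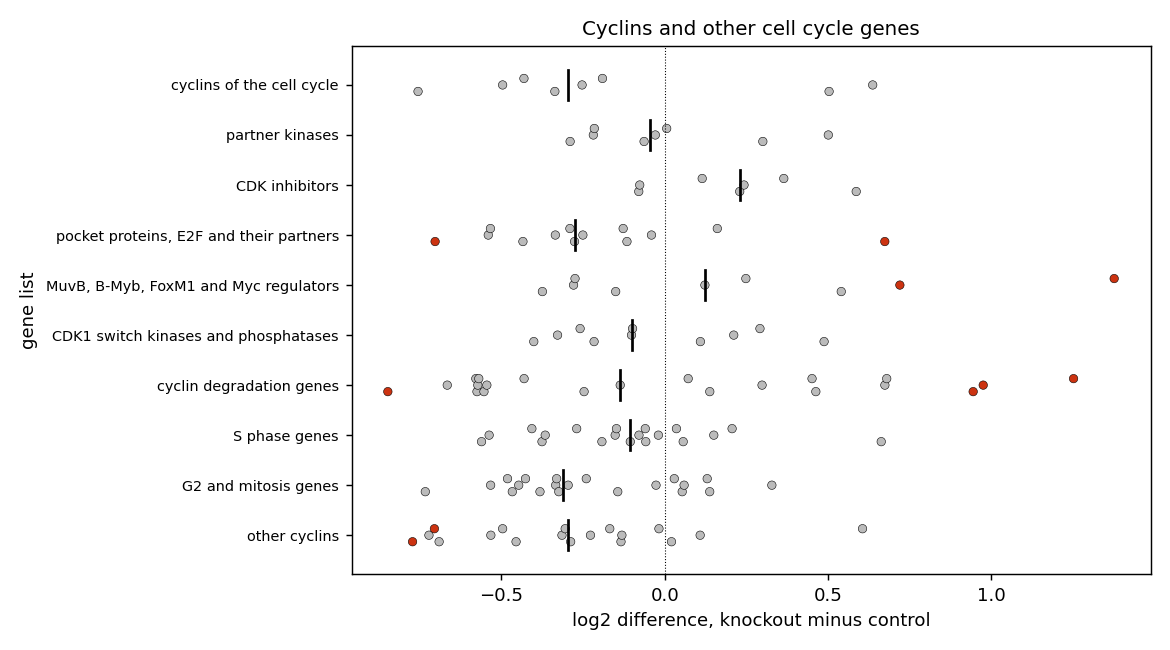
Log2 difference, knockout minus control (horizontal axis), of each gene's brightest probe set in the 8 cell cycle cyclins and 9 lists of cell cycle genes (vertical axis), with red points past a limma adjusted p of 0.05 and a bar at each median. The cyclins hold no red point, and the cyclin degradation genes hold 4, of which 3 lie above 0.9.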

How the data were processed

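Each deposited number is the log2 expression value of a probe set, and the submitters' processing notes name RMA (background correction, quantile normalization and probe summary) and limma, without versions; their order and settings are not given in the sources used. Array medians were 4.91 to 4.95, so values were used as deposited. Such normalization can remove a shift common to most genes.

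Names of probe sets come from GEO's platform annotation, and the symbols of all 8 cyclins matched a RefSeq table (GRCm38.p6) by gene ID. After 64 control probe sets were set aside, knockout was compared with control over the 4 arrays with limma 3.58.1 (lmFit, eBayes, no covariate) in R 4.3.3, for 18193 genes by brightest probe set and for 45037 probe sets, with Benjamini-Hochberg adjustment over all of them and a threshold of 0.05. Brightest probe sets are given with the gene fit, others with the probe set fit. The fit was run on simulated data with independent noise as a check of the code, and its outcome is not used as support here. The number of arrays limits the precision: the variance of a gene rested on 2 residual and 5.31 prior degrees of freedom.

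Members and gene lists were chosen with earlier results of these data known. All cyclin probe sets are named. Per pathway list, up to 3 members past the threshold with the largest change are named, or the largest change where none passed. Alternatives were an intensity trend, median centring, a further quantile normalization, a mean of 6 or more, averaged probe sets, a replicate block, and each array left out.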

Additional observations from a re-analysis of the deposited data

How the results depend on the processing

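The count of 0 of 8 cyclin genes past the threshold was also 0 with an intensity trend, a further quantile normalization, all probe sets of a gene averaged, and each array left out in turn (0 to 0). It was 1 (Ccne2) with each array centred on its median, where 4.32% of all genes passed, and 1 (Ccne2) with genes under a mean of 6 left out, where 12.9% passed. Over probe sets the count was 0 with median centring and with each array left out (0 to 0), and was 1 (Ccnd2, 1430127_a_at) with an intensity trend, with a further quantile normalization and at a mean of 6 or more. With the replicate number as a block, 3 cyclin genes passed (Ccnd2, Ccnd3 and Ccne2) and 1 probe set (1430127_a_at), while all genes past the threshold went from 754 to 3092 (17%). The block also gave 5 of 20 G2 and mitosis genes (Cenpe, adjusted p = 0.00627), 3 of 19 S phase genes (Tk1, 0.00875), 1 of 10 Cdk1 switch genes (Plk1, 0.0410), 1 of 8 kinases (Cdk4, 0.0449), 1 of 7 inhibitors (Cdkn1b, 0.0150), 4 of 13 pocket protein and E2F genes, 3 of 9 MuvB and Myb regulators, 13 of 21 degradation genes and 8 of 18 other cyclins; the replicate 1 minus 2 differences of the groups correlated with r = 0.11 over 45037 probe sets, and the labels do not say that the number pairs the samples. Over the 16281 probe sets at a mean of 6 or more, that correlation was r = 0.16. Signs reversed for Ccnd1 (0.13) and Ccnd2 (0.25) with probe sets averaged, and for Cenpe (0.82). With each array left out, 3 Ccnd2 probe sets reversed: 1416123_at ranged from -0.058 to 0.40 (reversed without knockout replicate 2, at -0.0089, and without control replicate 2), 1448229_s_at from -0.21 to 0.52 and 1455956_x_at from -0.32 to 0.54, the last pair reversed without control replicate 2. The cause of these changes was not tested. With an array left out, 4 to 50 of 18193 genes passed, and 0 of 45037 probe sets in all such fits but that without control replicate 1 (173), so the counts of 0 there show no stability. The lone array of that group is taken to vary as the other group does. In all, 73 of 80 recomputed cyclin gene differences and 177 of 185 probe set differences kept their sign and side of the threshold. These shares include the fits with an array left out, and no cyclin passed in the main fit. Keeping the side of the threshold there shows no stability either.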
